A study of Homo sapiens with 4 samples.

Results

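The genes described here are 56 mitotic and G2/M genes, taken by name as mitotic cyclins and kinases, kinetochore, spindle checkpoint, condensin and cytokinesis genes, out of 58735 gene identifiers in each library. Kinesins were left out, with the exception of CENPE, which is itself a kinesin motor of the kinetochore. All 56 symbols matched an identifier in the files. The genes were followed in HCT116, a human colorectal cancer cell line, 48 h after transfection with a control siRNA (2 libraries) or with siRNA against KIF26B, a member of the kinesin superfamily (2 libraries). No other treatment, allele or agent is named for either group. The labels do not say which of the study's KIF26B siRNAs each library received, nor whether the libraries of a group came from separate cultures. The column headers of the KIF26B siRNA libraries carry different knockdown numbers, whose meaning is not given. The P values therefore measure the spread between these libraries, which may be technical. Between the libraries labelled KIF26B siRNA, that spread may also hold a difference between siRNAs. Expression was measured by mRNA sequencing and is given in FPKM, fragments per kilobase of transcript scaled to a total for each library, which allows levels to be compared between genes per length.

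Cells that leave S phase build up the proteins of mitosis in G2. Cyclin B bound to the kinase CDK1 drives entry into mitosis, WEE1 and PKMYT1 hold CDK1 back by phosphorylation, and the CDC25 phosphatases remove that brake. Polo-like and Aurora kinases then build the spindle, kinetochores attach chromosomes to it, and the spindle checkpoint holds the anaphase-promoting complex (APC/C) and its activator CDC20 in check until every chromosome is attached. Many of these genes are transcribed together late in the cell cycle: the MuvB complex binds a short promoter element called the cell cycle genes homology region (CHR), with the repressive DREAM partners in resting cells and with MYBL2 and FOXM1 in cycling ones, and NF-Y binds CCAAT boxes in the same promoters. The mRNA levels of this group are therefore widely used as a measure of how many cells of a population are cycling.

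The promoters of the 4 members with the smallest unadjusted P are shown first, because the CHR and the CCAAT box are what most of the 45 members with a promoter in the table used here have in common. Each is 300 bases from RefSeq (GRCh38.p14), 250 before and 50 from the annotated transcription start on, printed 5′ to 3′ on the strand of the gene. Capitals mark a CHR (TTTGAA or TTCGAA) or a CCAAT box (CCAAT), each searched on both strands. The windows are KPNA2 (chr17:68035485-68035784, plus strand), MKI67 (chr10:128126374-128126673, minus strand), SPC25 (chr2:168890381-168890680, minus strand) and NCAPG (chr4:17810729-17811028, plus strand).
KPNA2: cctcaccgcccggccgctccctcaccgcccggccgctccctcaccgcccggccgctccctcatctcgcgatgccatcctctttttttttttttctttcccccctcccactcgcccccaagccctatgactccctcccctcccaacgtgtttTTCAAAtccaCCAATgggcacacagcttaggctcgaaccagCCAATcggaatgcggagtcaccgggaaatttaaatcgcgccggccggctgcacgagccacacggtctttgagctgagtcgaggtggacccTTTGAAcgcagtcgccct
MKI67: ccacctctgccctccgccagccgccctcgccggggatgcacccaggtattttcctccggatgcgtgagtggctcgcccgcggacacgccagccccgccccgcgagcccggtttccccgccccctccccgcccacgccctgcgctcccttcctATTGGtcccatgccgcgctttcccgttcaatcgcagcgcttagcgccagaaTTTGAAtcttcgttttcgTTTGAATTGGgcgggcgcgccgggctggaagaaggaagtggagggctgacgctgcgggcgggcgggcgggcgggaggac
SPC25: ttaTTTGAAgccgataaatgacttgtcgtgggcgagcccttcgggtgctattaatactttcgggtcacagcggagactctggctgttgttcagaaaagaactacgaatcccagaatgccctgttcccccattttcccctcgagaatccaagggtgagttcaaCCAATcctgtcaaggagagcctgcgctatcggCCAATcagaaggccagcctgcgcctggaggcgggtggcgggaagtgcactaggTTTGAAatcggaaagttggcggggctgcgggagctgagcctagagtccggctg
NCAPG: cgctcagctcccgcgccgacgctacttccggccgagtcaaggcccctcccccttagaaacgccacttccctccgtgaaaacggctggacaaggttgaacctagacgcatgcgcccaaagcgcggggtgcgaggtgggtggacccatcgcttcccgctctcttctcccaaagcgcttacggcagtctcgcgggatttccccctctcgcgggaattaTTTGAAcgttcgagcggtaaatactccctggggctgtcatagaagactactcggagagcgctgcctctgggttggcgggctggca

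With the start counted as 0 and positions given for the leftmost base, MKI67 held a CHR at −47 and another at −29, the second running directly into a CCAAT box at −24. In SPC25 a CHR lay at −3 and a pair of CCAAT boxes at −88 and −56, with a further CHR at −247. KPNA2 held its CHR copies at −99 and +32, around CCAAT boxes at −89 and −58. NCAPG held a CHR at −35 and no CCAAT in this window. Of the 45 members in the table, 35 (77.8%) held a CHR, against 19.5% of the 27305 genes of the table, and 35 (77.8%) held a CCAAT box, against 39.7%. Both motifs stood in 28 members (62.2%), against 7.85% of all genes. The CHR lay within 50 bases of a start in 30 members (66.7%), against 6.24% of all genes. The other G2/M and mitosis genes examined beside the members (53 in the table) had a CHR in 58.5%, and the G1/S and DNA replication genes (48 in the table) in 8.33%, while a CCAAT box was present in 64.2% and 58.3% of them. These are matches of letters and not bound sites. The 11 members that are not in the promoter table are AURKA, PKMYT1, RACGAP1, TPX2, WEE1, BIRC5, FOXM1, CENPM, TTK, BUB3 and UBE2C.

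The targeted gene was examined before the members. In the control siRNA libraries KIF26B was at 0.110 and 0.205 FPKM (31 and 73 reads). It was at 0.140 FPKM in the library labelled KIF26B siRNA replicate 1 (43 reads) and 0.0307 FPKM in the library labelled KIF26B siRNA replicate 2 (8 reads). The library labelled replicate 1 thus lay between the controls for its own target, and the library labelled replicate 2 lay below both (limma on log2(FPKM + 1) without a filter on low values, log2 fold change −0.094 ± 0.094 SE, adjusted p = 0.775). At so low a level the added 1 flattens the change: the ratio of the mean FPKM values was 0.541, and the log2 fold change was −0.52 with a pseudocount of 0.1 and −1.13 with voom on recovered reads. Every direction below for the library labelled replicate 1 therefore describes that library, whose KIF26B level does not check its label. The FPKM values were scaled to totals of 18068934 to 24673739 fragments, whose definition is not given in the sources used here. The reads recovered exceeded these totals by 6.74% and 7.44% in the controls, 7.53% in the library labelled replicate 1 and 13.1% in the library labelled replicate 2. These reads are estimates that rest on inferred gene lengths. Mitochondrial genes took 6.397% and 6.41% of reads in the controls, 8.999% in the library labelled replicate 1 and 7.23% in the library labelled replicate 2. Of 12 colon epithelium markers, 6 reached a mean of 1 FPKM, with EPCAM at 77.0 to 98.6 FPKM and KRT8, KRT18, KRT19, CDH1 and CDX2 present, whereas KRT20, CDX1, VIL1, LGALS4, GPA33 and CDH17 were near or at 0. The 7 leukocyte markers summed to 0.493 to 0.766 FPKM and the 4 endothelial markers to 0.114 to 0.436 FPKM, and of 8 fibroblast markers only COL1A1 was above 1 FPKM (4.74 to 8.69).

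The mitotic genes as a group were lower in both libraries labelled KIF26B siRNA, and more so in the library labelled replicate 1. Summed over the 56 members, expression was 1852 and 1872 FPKM in the controls, 995.1 FPKM in the library labelled replicate 1 and 1418 FPKM in the library labelled replicate 2. Of the 55 members that reached a mean of 1 FPKM, 54 had a lower mean of log2(FPKM + 1) with KIF26B siRNA, against 51.6% of all 14523 genes tested, and CDC25B alone had a higher one. The median member was 35.8% lower. On the log2(FPKM + 1) scale, which understates the change of low genes, the median fold change of the members was −0.64 (range −1.07 to 0.066), beside −0.013 over all genes tested. In bulk RNA, fewer cycling cells and less of these mRNAs per cell cannot be told apart.

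No member passed an adjusted p of 0.05 (limma, Benjamini-Hochberg over all genes tested). The background is 0%: none of the 14523 genes passed either, the smallest adjusted p being 0.242, while 2385 had an unadjusted P below 0.05. Voom with limma on recovered reads also called 0 members after adjustment. For any gene taken alone, the smallest p of an exact two-sided permutation test is 0.333 with 2 libraries against 2. At an unadjusted P below 0.05, 31 of the 55 members were lower (56.4%; 8.68% of all genes tested) and 0 were higher (7.74% of all genes). That count rests on the libraries kept: it was 8 without control siRNA replicate 1 (1.67% of all genes), 9 without control siRNA replicate 2 (1.61%), 42 without the library labelled KIF26B siRNA replicate 1 (23.7%) and 54 without the library labelled replicate 2 (22.4%). Without the library labelled replicate 1, 23 members also passed the adjusted threshold, as did 17.3% of all genes, with 1 library left in that group and its spread taken from the controls. SPC25 alone also passed the fold threshold used by the study, a log2 fold change below −1 (0.606% of all genes). This depends on the scale and the libraries: MKI67 and CENPE passed as well with a pseudocount of 0.1 (1.40% of all genes), MKI67, CENPE, ECT2 and SMC4 as well with voom on recovered reads (1.40%), and 16 members without SPC25 among them when the library labelled replicate 2 was left out (1.54%). With equal FPKM sums 6 members passed (1.02%), 4 when mitochondrial genes were left out of the sums (0.757%) and 2 without control siRNA replicate 1 (0.930%). In 48 members both libraries labelled KIF26B siRNA lay below both controls (87.3%; 27.8% of all genes), and in none did both lie above (24.9% of all genes).

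Taken separately, the library labelled replicate 1 was below both controls in all 55 members tested (45.8% of all genes tested) and the library labelled replicate 2 in 48 (44.8%). The median difference from the control mean was −0.83 in the library labelled replicate 1 (range −1.41 to −0.32) and −0.38 in the library labelled replicate 2 (range −1.18 to 0.45). The former was the lower of the pair in 51 of 55 members, beside 7649 of all 14523 genes tested. The controls differed from each other by a median of 0.052 on this scale and the libraries labelled KIF26B siRNA by 0.46, beside 0.073 and 0.28 over all genes tested. The library with the larger difference is thus also the library whose KIF26B was within the controls and whose mitochondrial share was highest; the part of either in the result was not tested. Without it, the members' median was −0.38, and 49 of 55 were lower, beside a median of −0.0046 over all genes tested.

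**Figure D1:**
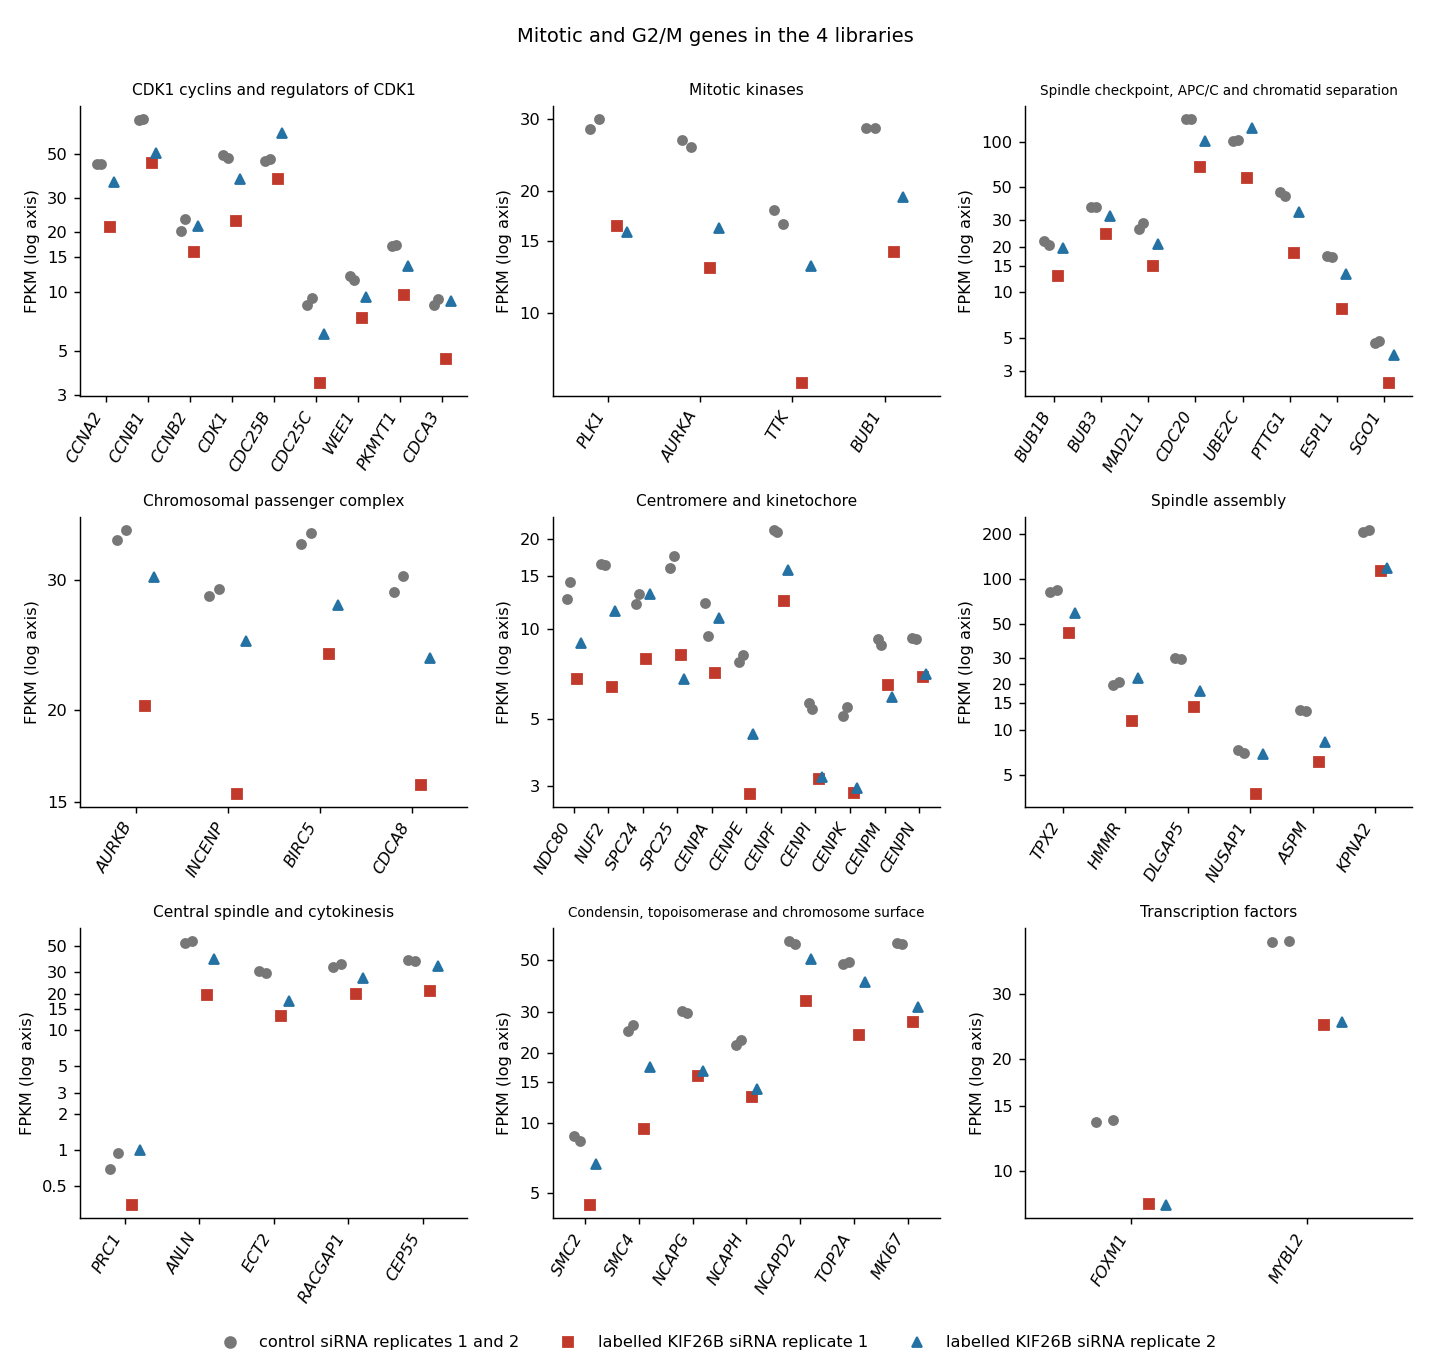
FPKM (vertical axis, logarithmic) of each of the 56 members in the 4 libraries, in 9 panels by role; grey circles are the control siRNA libraries, the red square the library labelled KIF26B siRNA replicate 1 and the blue triangle the library labelled KIF26B siRNA replicate 2. The red square is below both grey circles for all 56 genes, and the blue triangle lies between the red square and the circles for most.

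Among CDK1, its cyclins and its regulators, 8 of 9 members were lower, 4 of them with an unadjusted P below 0.05, and the median log2 fold change was −0.55. Beside this count and those of the roles below, 51.6% of all genes tested had a lower mean, and 8.68% were lower at that P. CCNB1, the cyclin B that brings CDK1 into mitosis, was at 74.2 and 75.2 FPKM in the controls and at 45.2 and 50.7 FPKM in the libraries labelled KIF26B siRNA. These groups did not overlap, and the fold change was −0.63 ± 0.12 (SE; adjusted p = 0.242, limma). CDK1 itself was at 49.6 and 47.8 FPKM in the controls, 22.9 FPKM in the library labelled replicate 1 and 37.2 FPKM in the library labelled replicate 2. CCNA2, the cyclin of S phase and G2, had the same order, with 44.4 FPKM in both controls, then 21.3 and 36.2 FPKM. Both genes were below the controls in each labelled library, but the spread between those libraries left fold changes of −0.72 ± 0.26 for CDK1 and −0.66 ± 0.28 for CCNA2. CCNB2, the second cyclin B, was at 20.3 and 23.3 FPKM in the controls and at 16.0 and 21.5 FPKM in the labelled libraries, so that the library labelled replicate 2 lay between the controls.

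The regulators of CDK1 did not all lie on one side of the controls. CDC25C, a phosphatase that activates CDK1, was at 8.61 and 9.32 FPKM in the controls and 3.45 and 6.13 FPKM in the labelled libraries (−0.82 ± 0.27). CDC25B, the related phosphatase thought to start this activation, was at 46.3 and 47.2 FPKM in the controls, 37.3 FPKM in the library labelled replicate 1 and 64.2 FPKM in the library labelled replicate 2. The labelled libraries thus lay on opposite sides of the controls (−0.32 and 0.45 on the log2 scale), and the mean difference of 0.066 ± 0.29 turns to −0.063 when the libraries are scaled to equal FPKM sums. The inhibitory kinases WEE1 and PKMYT1 were both lower, by 28.7% and 32.8%, on the same side as CDC25C. CDCA3, which promotes the removal of WEE1, was at 8.60 and 9.21 FPKM in the controls, 4.55 FPKM in the library labelled replicate 1 and 8.997 FPKM in the library labelled replicate 2, the last between the controls.

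All 4 mitotic kinases were lower, 3 with an unadjusted P below 0.05, and their median fold change was −0.81. PLK1, the Polo-like kinase that acts from mitotic entry to cytokinesis, was at 28.3 and 30.02 FPKM in the controls and at 16.4 and 15.8 FPKM in the labelled libraries. The libraries labelled KIF26B siRNA agreed within 0.05 of each other for this gene, and the fold change was −0.82 ± 0.11 (SE; adjusted p = 0.242, limma). AURKA, the Aurora kinase of the spindle poles, was at 26.7 and 25.5 FPKM in the controls and 12.9 and 16.2 FPKM in the labelled libraries (−0.81 ± 0.15). BUB1, a checkpoint kinase of the kinetochore, was 41.3% lower. TTK, the kinase that starts checkpoint signalling, was at 17.9 and 16.5 FPKM in the controls, 6.74 FPKM in the library labelled replicate 1 and 13.1 FPKM in the library labelled replicate 2, and its fold change of −0.80 ± 0.33 was close to that of AURKA, with an SE of 0.33 beside 0.15.

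The genes of the spindle checkpoint, the APC/C and chromatid separation were lower in all 8 cases, with a median of −0.53, but only MAD2L1 and CDC20 had an unadjusted P below 0.05. CDC20, which activates the APC/C, was at 140.5 and 141.2 FPKM in the controls, 67.9 FPKM in the library labelled replicate 1 and 101.3 FPKM in the library labelled replicate 2 (−0.76 ± 0.23). PTTG1, the securin that holds separase inactive, was at 45.9 and 43.2 FPKM in the controls and at 18.2 and 33.9 FPKM in the labelled libraries (−0.82 ± 0.32). Both labelled libraries lay below the controls for these genes, and the library labelled replicate 1 was the lower. UBE2C, the ubiquitin-conjugating enzyme that works with the APC/C, was at 101.3 and 103.0 FPKM in the controls, 57.04 FPKM in the library labelled replicate 1 and 123.6 FPKM in the library labelled replicate 2. Its labelled libraries thus lay on either side of the controls. MAD2L1, BUB1B and BUB3, which form the checkpoint complex with CDC20, were lower by 34.9%, 23.5% and 23.9%, and ESPL1 (separase) and SGO1 (shugoshin, the protector of cohesin at centromeres) by 38.9% and 31.9%.

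The chromosomal passenger complex, which corrects faulty attachments and then directs cytokinesis, was lower in all 4 of its genes, with a median of −0.50. In all 4 both labelled libraries were below both controls (27.8% of all genes tested). CDCA8 (borealin) was at 28.9 and 30.4 FPKM in the controls and at 15.8 and 23.5 FPKM in the labelled libraries (−0.59 ± 0.22). BIRC5 (survivin) was at 33.6 and 34.8 FPKM in the controls and at 23.8 and 27.7 FPKM in the labelled libraries (−0.40 ± 0.13), and was the only gene of the complex with an unadjusted P below 0.05. AURKB, the kinase of the complex, was at 34.03 and 35.1 FPKM, then 20.2 and 30.3 FPKM. Its scaffold INCENP was at 28.6 and 29.2 FPKM, then 15.4 and 24.8 FPKM. For all 4 genes the library labelled replicate 1 was the lowest of the 4 libraries, and in the controls the levels per length lay within 28.6 to 35.1 FPKM.

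In the centromere and kinetochore group all 11 genes were lower, 9 of them with an unadjusted P below 0.05, and the median was −0.64. The largest fold change of any member on the log2(FPKM + 1) scale was that of SPC25 (with voom on recovered reads, CENPE was at −1.18 and SPC25 at −1.16), a subunit of the NDC80 complex that binds microtubules. It was at 16.0 and 17.6 FPKM in the controls and at 8.16 and 6.82 FPKM in the labelled libraries, a fold change of −1.07 ± 0.14 (SE; adjusted p = 0.242, limma). SPC25 is 1 of only 4 members for which the library labelled replicate 2 was the lower of the pair. Its direct partner SPC24 was at 12.1 and 13.1 FPKM in the controls, 7.95 FPKM in the library labelled replicate 1 and 13.1 FPKM in the library labelled replicate 2, which lay within the controls. The remaining subunits NDC80 and NUF2 were 41.3% and 45.7% lower and below both controls in each labelled library. The 4 subunits of this one complex thus had fold changes from −1.07 (SPC25) to −0.28 (SPC24).

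CENPE, the kinesin motor that moves chromosomes to the spindle equator, was at 7.74 and 8.20 FPKM in the controls and at 2.81 and 4.46 FPKM in the labelled libraries (−0.98 ± 0.21). CENPF, the most abundant member of the group per length, was at 21.4 and 21.1 FPKM in the controls and 12.4 and 15.7 FPKM in the labelled libraries (−0.57 ± 0.16). The inner kinetochore genes CENPK and CENPI had little spread between the labelled libraries. CENPK was at 5.14 and 5.50 FPKM in the controls and at 2.83 and 2.94 FPKM in the labelled libraries, and CENPI was at 5.66 and 5.41 FPKM, then 3.15 and 3.22 FPKM. CENPM and CENPN, of the same inner complex, were lower by 31.4% and 24.8%. CENPA, the histone H3 variant that marks the centromere, was at 12.3 and 9.50 FPKM in the controls and at 7.15 and 10.9 FPKM in the labelled libraries, and its groups overlapped.

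The 6 spindle assembly genes were all lower, 4 with an unadjusted P below 0.05, and their median was −0.76. KPNA2, the importin alpha that holds spindle assembly factors inactive away from chromosomes, was the most abundant of the 56 members per length and had the smallest unadjusted P of all of them. It was at 205.4 and 211.1 FPKM in the controls and at 112.7 and 117.6 FPKM in the labelled libraries, which is 44.7% lower (−0.85 ± 0.11 SE; adjusted p = 0.242, limma). TPX2, which activates AURKA on spindle microtubules, was 38.2% lower. DLGAP5, a microtubule-stabilising spindle protein, was at 30.1 and 29.6 FPKM in the controls and 14.1 and 18.1 FPKM in the labelled libraries (−0.86 ± 0.16), and ASPM, a protein of the spindle poles, was 46.2% lower. HMMR, a spindle and hyaluronan-binding protein, was at 19.8 and 20.6 FPKM in the controls, 11.4 FPKM in the library labelled replicate 1 and 21.9 FPKM in the library labelled replicate 2. NUSAP1, which bundles spindle microtubules, was at 7.35 and 6.96 FPKM in the controls and at 3.73 and 6.91 FPKM in the labelled libraries, so that the library labelled replicate 2 sat just under the controls.

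Of the 5 genes of the central spindle and cytokinesis, 4 reached a mean of 1 FPKM, and all 4 were lower (median −0.73), 2 with an unadjusted P below 0.05. ECT2, the exchange factor that switches on RHOA at the equator, was at 30.9 and 29.5 FPKM in the controls and at 13.0 and 17.4 FPKM in the labelled libraries (−0.96 ± 0.18 SE; adjusted p = 0.242, limma). ANLN, the anillin scaffold of the contractile ring, was at 52.9 and 54.3 FPKM in the controls, 19.5 FPKM in the library labelled replicate 1 and 39.0 FPKM in the library labelled replicate 2. On the log2(FPKM + 1) scale its difference of −1.41 in the library labelled replicate 1 was the largest of any member in a single library. The difference in the other was −0.45. In FPKM itself CENPE was further down in the library labelled replicate 1, at 35.3% of the control mean beside 36.4% for ANLN. RACGAP1, the centralspindlin subunit that binds ECT2, and CEP55, which acts in abscission, were 31.1% and 27.7% lower. PRC1, which bundles the microtubules of the central spindle, stayed under the limit of 1 FPKM at 0.69 and 0.94 FPKM in the controls, 0.35 FPKM in the library labelled replicate 1 and 0.99 FPKM in the library labelled replicate 2. Its level is uncertain, because 57.6% of its exonic bases are shared with another annotated gene of the same strand.

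Condensin, topoisomerase and the chromosome surface protein gave 7 of 7 lower genes, 4 with an unadjusted P below 0.05 (8.68% of all genes tested), and a median of −0.68. In all 7 both labelled libraries were below both controls (27.8% of all genes). MKI67 encodes Ki-67, the coat protein of mitotic chromosomes and the usual marker of proliferating cells. It was at 59.2 and 58.6 FPKM in the controls and at 27.1 and 31.4 FPKM in the labelled libraries, 50.3% lower (−0.99 ± 0.13 SE; adjusted p = 0.242, limma). Among the condensin genes, NCAPG was at 30.2 and 29.5 FPKM in the controls and at 15.9 and 16.8 FPKM in the labelled libraries (−0.83 ± 0.11). NCAPH was at 21.6 and 22.7 FPKM, then 13.0 and 14.0 FPKM (−0.68 ± 0.12). Both are subunits of condensin I, and their labelled libraries lay close together. NCAPD2, of the same complex, was at 60.4 and 58.7 FPKM, 33.5 FPKM in the library labelled replicate 1 and 50.5 FPKM in the library labelled replicate 2. SMC4, an ATPase shared by both condensins, was at 24.9 and 26.3 FPKM in the controls and at 9.42 and 17.4 FPKM in the labelled libraries (−0.94 ± 0.31), and its partner SMC2 was 35.4% lower. TOP2A, the topoisomerase that untangles sister chromatids, was 34.3% lower.

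Both transcription factors of the list were lower with almost no spread. FOXM1 was at 13.6 and 13.8 FPKM in the controls and at 8.20 and 8.11 FPKM in the labelled libraries (−0.68 ± 0.11 SE; adjusted p = 0.242, limma). MYBL2 was at 41.4 and 41.6 FPKM in the controls and at 24.8 and 25.3 FPKM in the labelled libraries (−0.71 ± 0.11). On the log2 scale the labelled libraries differed by 0.014 for FOXM1 and 0.028 for MYBL2, beside a median of 0.46 over the members.

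**Figure D2:**
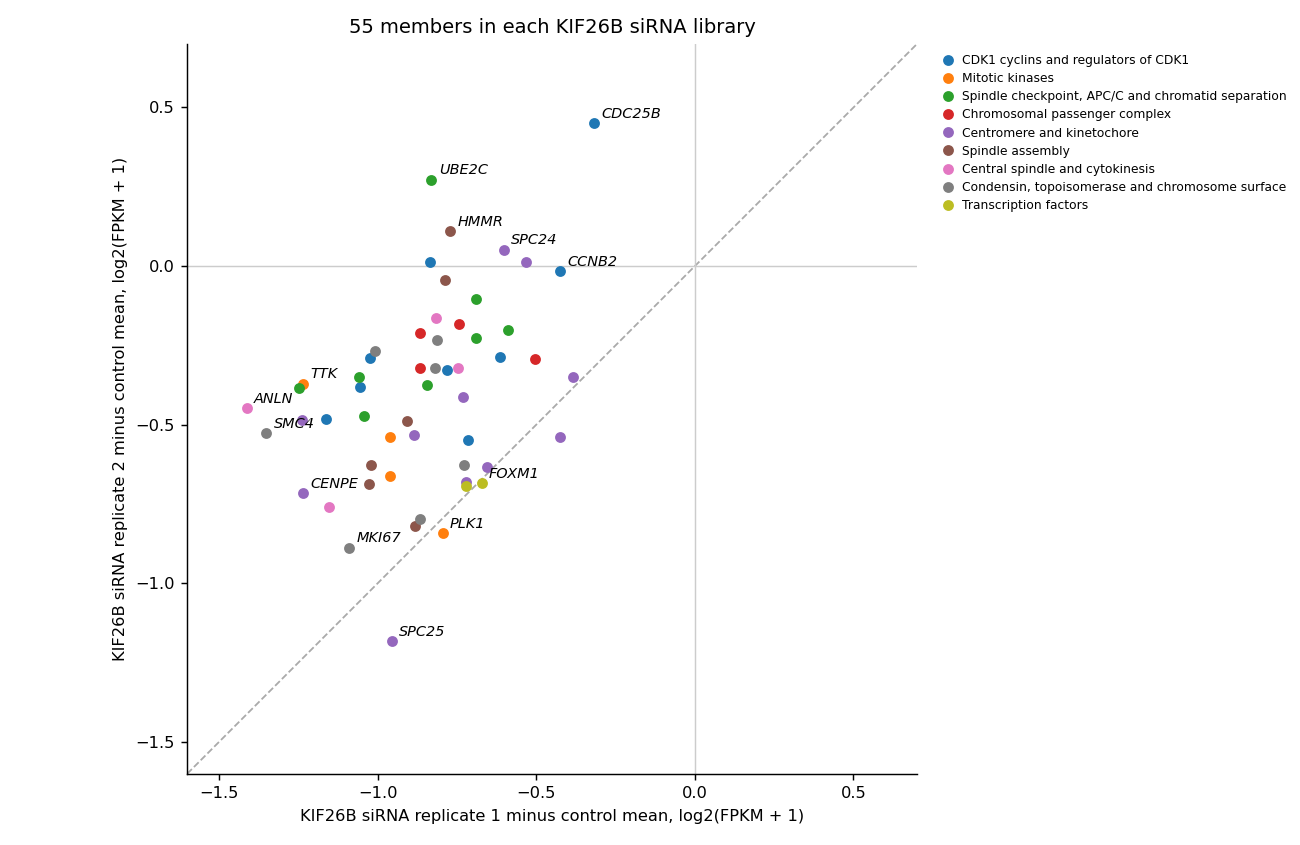
Difference from the control mean on the log2(FPKM + 1) scale in the library labelled KIF26B siRNA replicate 1 (horizontal axis) and in the library labelled KIF26B siRNA replicate 2 (vertical axis) for the 55 members tested, coloured by role; the dashed line marks equal differences. All points are left of 0, 51 lie above the dashed line, and FOXM1 and PLK1 lie near it.

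The 12 members with the smallest unadjusted P (KPNA2, MKI67, SPC25, NCAPG, PLK1, MYBL2, FOXM1, CENPK, CENPI, NCAPH, ECT2 and AURKA) are mostly those with both labelled libraries at the same level, since the test divides by the spread between libraries. At the other end, 7 of the 55 members did not have both labelled libraries below both controls: CDC25B, UBE2C, HMMR, SPC24, CENPA, CDCA3 and CCNB2. In each of them the library labelled replicate 2 was at or above the lower control, and the library labelled replicate 1 was below both. They came from 4 of the 9 role groups, 3 of them from CDK1 and its regulators.

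Within the members, a CHR was present in 17 of the 23 members with an unadjusted P below 0.05 and a promoter in the table (73.9%), and in 18 of the other 22 (81.8%). Outside all gene lists used here, 221 genes tested held a CHR within 50 bases of a start together with a CCAAT box. Of these 62.9% had a lower mean on the log2 scale with KIF26B siRNA and 16.3% were lower at an unadjusted P below 0.05, with a median fold change of −0.10. Of the 5233 such genes with neither, 51.4% had a lower mean and 7.38% were lower at that P, with a median of −0.010. These shares are descriptions of genes that share libraries, and no test was made of them. The lists hold no mitotic kinesin other than CENPE, so the genes outside them may include mitotic kinesins.

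Related genes were read from 3 further lists. The 68 other G2/M and mitosis genes had values near those of the members. A lower mean on the log2 scale was found in 65, against 51.6% of all genes tested, and the median was −0.54. At an unadjusted P below 0.05, 35 were lower (8.68% of all genes) and 1 was higher (7.74% of all genes). The smallest P values of that list belonged to DEPDC1B, FAM83D and GTSE1. DEPDC1B, a regulator of adhesion at mitotic entry, was at 13.7 and 14.4 FPKM in the controls and at 5.26 and 6.35 FPKM in the labelled libraries (−1.15 ± 0.14). FAM83D, a spindle protein, was at 39.9 and 40.0 FPKM, then 21.5 and 20.3 FPKM (−0.90 ± 0.11), and GTSE1, a microtubule-associated protein of G2 and mitosis, was at 19.6 and 19.1 FPKM, then 10.1 and 10.3 FPKM (−0.86 ± 0.11). The list's only gene higher at that P, ZW10, a kinetochore protein of the checkpoint, was at 4.10 and 3.55 FPKM in the controls and at 8.495 and 7.81 FPKM in the labelled libraries (0.92 ± 0.13; adjusted p = 0.242, limma), and was picked out after its values were seen.

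The 57 G1/S and DNA replication genes all had a lower mean on the log2(FPKM + 1) scale, against 51.6% of all genes tested, with a median of −0.36. At an unadjusted P below 0.05, 29 were lower (8.68% of all genes). UNG, the uracil glycosylase of DNA repair, had the higher mean in FPKM itself, 18.6 in the controls and 19.2 with KIF26B siRNA, and was picked out after its values were seen. Its labelled libraries lay on opposite sides of the controls. It was at 18.3 and 18.8 FPKM in the controls, 26.1 FPKM in the library labelled replicate 1 and 12.3 FPKM in the library labelled replicate 2. In this list the libraries stood closer together, with medians of −0.43 in the library labelled replicate 1 and −0.34 in the library labelled replicate 2, whereas the members' medians were −0.83 and −0.38. CLSPN, the adaptor of the replication checkpoint, was at 10.6 and 11.5 FPKM in the controls and 5.05 FPKM in both labelled libraries (−0.99 ± 0.11). MCM10, which helps to start replication forks, was at 11.8 and 11.5 FPKM, then 6.12 and 5.98 FPKM (−0.85 ± 0.11), and UHRF1, which maintains DNA methylation behind forks, at 44.3 and 43.8 FPKM, then 23.7 and 24.1 FPKM (−0.85 ± 0.11). Whether the lists differ was not tested.

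Of the 19 genes for subunits of MuvB and DREAM, NF-Y and their upstream regulators, 11 had a lower and 8 a higher mean on the log2 scale, and the median was −0.15. At an unadjusted P below 0.05, 5 were lower (MYBL1, LIN54, RB1, LIN52 and RBL1) and 2 were higher (TFDP2 and CDKN1A). Over all genes tested, 51.6% had a lower mean, 8.68% were lower at that P and 7.74% were higher. LIN54, the MuvB subunit that reads the CHR, was at 7.55 and 7.36 FPKM in the controls and at 3.68 and 4.92 FPKM in the labelled libraries (−0.68 ± 0.16). LIN9, another MuvB subunit, was at 3.17 and 3.604 FPKM, then 2.67 and 2.58 FPKM (−0.27 ± 0.12). RBL1, the p107 pocket protein of DREAM, was at 4.53 and 4.19 FPKM, then 3.06 and 2.15 FPKM (−0.58 ± 0.17). The related pocket protein RBL2 went the other way, at 6.42 and 5.64 FPKM, then 7.13 and 10.47 FPKM (0.46 ± 0.21). MYBL1 had the lowest fold change of the list (−1.255 ± 0.27), at 6.59 and 6.58 FPKM, then 1.51 and 3.04 FPKM. RBL2 and MYBL1 were picked out after their values were seen. CDKN1A, the CDK inhibitor p21, was at 206.4 and 210.5 FPKM in the controls and at 267.7 and 317.9 FPKM in the labelled libraries (0.48 ± 0.14; adjusted p = 0.271, limma). CDKN1A was thus above both controls in both labelled libraries, as were 24.9% of all genes tested.

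Some members share sequence with other genes, and the strand setting of the counting is not given in the sources used here. In the annotation used, exons of the opposite strand cover 33.7% of the exonic bases of NCAPG (LCORL, 1.16 to 2.90 FPKM), 31.9% of PKMYT1 (PAQR4, 10.49 to 13.95 FPKM), 22.0% of SMC4 (TRIM59, 2.88 to 3.996 FPKM) and 15.9% of FOXM1 (ITFG2, 2.15 to 2.41 FPKM). NUSAP1 shares 86.8% of its exonic bases with a gene of the same strand that is listed at 0 in all 4 libraries. The level of NUSAP1 is therefore uncertain, like that of PRC1. Of 34 pseudogenes and near copies of members in the files, 22 were at 0 in all libraries and 1 reached 1 FPKM, UBE2CP5, at 0.87 and 1.04 FPKM in the controls and 2.65 and 0.95 FPKM in the labelled libraries, beside 57.04 to 123.6 FPKM for UBE2C. Over all 56 members, a gene had between 41 and 32712 recovered reads in a library.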

How the data were processed

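The authors deposited FPKM values for each of 4 libraries. Per the labels and the study's methods, poly-T-selected mRNA was sequenced in pairs, aligned with HISAT2 2.0.5 and counted with featureCounts 1.5.0-p3. The submitters' processing notes and the methods name different genome builds, so no gene coordinates are taken from the files; promoter windows carry those of the RefSeq table (GRCh38.p14). Whole reads were recovered from the FPKM values for 99.7% of the 34638 identifiers above 0 (tolerance 0.01 reads), at 20438405 to 26509642 reads in a library. Gene lengths were inferred, as lengths that gave whole reads in every library. Among these, the length nearest the annotated exon length within 0.7 to 1.1 times it was taken, otherwise the shortest. Several lengths can fit a gene, so recovered reads, their totals and voom on them are estimates. Symbols matched 56513 of 58735 identifiers (GENCODE GRCh37).

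Groups came from the sample titles. Log2(FPKM + 1) was tested for the 14523 genes averaging 1 FPKM or more with limma 3.58.1 in R 4.3.3. No block was used, and Benjamini-Hochberg adjustment ran over all genes. The fit was also run on simulated reads with the same dispersion in both groups. The labelled libraries differed from each other more than the controls did, so that run does not check the fit at their spread. Tables and figures were made with Python 3.11.15, pandas 2.3.3, numpy 2.4.6 and matplotlib 3.10.9. Deviations from the group mean of libraries with the same replicate number correlated at r = −0.00314. In so small a group, such a deviation holds only the difference between its libraries, whatever its source. This r therefore cannot tell whether the numbers pair the libraries. The alternatives were a replicate block, other filters, a pseudocount of 0.1, a variance trend, 3 other scalings, voom on recovered reads and leaving out each library. The members, the other lists and the tests were chosen with earlier results of these data known. The 56 members are given by role, with values in every library for KIF26B, the 12 members with the smallest P, the largest fold change and highest level of each role, the transcription factors, named regulators (1 of them not reported here) and the 3 smallest P of the other G2/M and G1/S lists; further values in every library were chosen after they were seen. All 9 role groups were written by hand.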

Additional observations from a re-analysis of the deposited data

How the results depend on the processing

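Of the members tested (55, or 56 without a filter), 54 or 55 were lower under every alternative run except leaving out the library labelled KIF26B siRNA replicate 1 (49 lower). In the main fit 51.6% of all genes tested were lower. Over the alternatives the median fold change of all genes ran from −0.12 to 0.0064. Whether the numbers of the replicates pair the libraries is not known. With the replicate block, the median stayed at −0.64 and the smallest adjusted p was 0.391 (limma). At an unadjusted P below 0.05, 34 members were then lower and 0 higher, and 861 of all genes were lower and 864 higher. Over the other filters, pseudocount, trend and scalings and voom on recovered reads, the members lower at that P numbered 24 to 44. The share of all genes lower at that P also moved over these settings, from 6.31% without a filter to 14.8% with equal FPKM sums. Without a filter on low values, 2186 of all genes were lower and 2192 higher, against 1261 and 1124. Equal FPKM sums moved the median of all genes to −0.12 and gave 2145 lower and 643 higher genes; CDC25B then stood at −0.063, and the members' median at −0.76. Leaving out 1 library at a time gave 8 to 54 members lower and 0 to 2 higher, a members' median of −0.83 to −0.38, 234 to 3435 of all genes lower and 265 to 3326 higher. The members lower were 8 without control siRNA replicate 1 and 9 without control siRNA replicate 2, 42 without KIF26B siRNA replicate 1 and 54 without KIF26B siRNA replicate 2; a group left with 1 library is assumed to vary like the other. The members at an adjusted p below 0.05 ranged from 0 to 23, the 23 without KIF26B siRNA replicate 1, where 2507 of all genes passed (limma). Without that library HMMR was at 0.11, CDCA3 at 0.014, CENPA at 0.014, SPC24 at 0.052, UBE2C at 0.27 and CDC25B at 0.45. Without KIF26B siRNA replicate 2 they were at −0.77, −0.84, −0.53, −0.60, −0.83 and −0.32. The causes were not tested. Depth leaves KIF26B at 8 to 73 reads in a library.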
